A study of Mus musculus with 12 samples.

Results

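Translation initiation and elongation factors were followed in KPC cells, a mouse pancreatic ductal adenocarcinoma line, after cisplatin (Cis). The genes were taken by symbol, as every gene whose name begins with Eif or Eef followed by a digit, without the kinases and brakes Eif2ak1 to Eif2ak4, the Eif4ebp genes and Eef2k. This gave 64 genes of the 15803 with a read in any library, 51 of them Eif genes and 13 Eef genes, and 52 of the 64 had reads in all 12 libraries. KPC cells come from a mouse model that carries Trp53 R172H and Pdx1-Cre, in which Cre acts in the pancreas, and whether the line is a single clone was not stated. The 3 groups of cells came from this same line and differed by treatment. One received 20 μM Cis for 6 h, one the same dose for 21 h, and the controls are labelled as untreated and described in the methods as given PBS, for a time that is not labelled. Each group had 2 ribosome profiling libraries, which count ribosome-protected fragments (footprints), and 2 RNA-seq libraries, and the study used them to find messages whose translation changes under Cis.

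Initiation begins when eIF2, loaded with GTP and the initiator tRNA, joins the small ribosomal subunit with eIF1, eIF1A and eIF3, while eIF4E, eIF4G and eIF4A bind the cap and unwind the leader. After the start codon is found, eIF5 triggers GTP hydrolysis, eIF5B joins the large subunit, and eIF2B recharges eIF2 with GTP. Stress kinases phosphorylate the alpha subunit of eIF2, which then blocks eIF2B and slows initiation. In elongation, eEF1A delivers aminoacyl-tRNA, the eEF1B subunits recharge eEF1A, eEF2 moves the ribosome by a codon and eIF5A relieves stalls. These are among the most abundant proteins of growing cells, and the messages of elongation factors are well known to carry a terminal oligopyrimidine tract that links their translation to growth signals.

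Footprint libraries held 3375480 to 5204127 reads and RNA-seq libraries 1985344 to 2901692. In the RNA-seq libraries 51.8% to 56.6% of the reads fell on Lars2, Tmem38b and Mettl26, which left 862476 to 1341584 for all other genes. Levels are RPKM, reads scaled for length and depth, with the length that of the coding sequence in ribosome profiling and that of the full transcript in RNA-seq. For the tests, values were also scaled between libraries, so every rise or fall is relative to the other messages of a library. The paper reported inhibited protein synthesis under Cis from a puromycin assay, so a rise here need not be a rise in absolute synthesis. The epithelial keratins Krt8, Krt18 and Krt19 were at 1569.6 to 4949 footprint RPKM in every library and Cdh1 at 88.3 to 147, while the epithelial marker Epcam was near 0 (0.287 to 1.83). Krt7 and Sox9, of the same type, were at 9.19 to 21.9 and 11.1 to 30.9. Ptprc of leukocytes and Pecam1 and Cdh5 of endothelium had no RNA read and at most 0.229, 0.540 and 0.126 footprint RPKM. Cd68, also of leukocytes, was at 1.18 to 5.40 footprint RPKM and had RNA reads in 4 of 6 libraries (up to 4.27 RPKM). The acinar gene Cela1 was at 1.69 to 6.12 footprint RPKM, while the acinar genes Cpa1 and Ptf1a had no read. The fibroblast genes Col1a1, Dcn, Pdgfra and Pdgfrb stayed at 0 to 1.71 footprint RPKM. The labels do not say that the 2 libraries of a group came from separate cultures, so p-values measure the spread between these samples, which may be technical. In such bulk samples a change in the make-up of the cells and a change in RNA per cell cannot be told apart.

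Messages with a terminal oligopyrimidine tract begin with a run of C and T, so the bases around the annotated start were read for the factors on which the results turn. The windows hold 5 bases before and 25 from the RefSeq start on (assembly GRCm38.p6, 5′ to 3′), and capitals mark a run of at least 6 C or T on the gene's strand. The first 2 genes are elongation factors, and the others are initiation factors with and without a run.
Eef1a1, chr9:78481700-78481729, minus strand: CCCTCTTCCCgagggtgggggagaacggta
Eef2, chr10:81176626-81176655, plus strand: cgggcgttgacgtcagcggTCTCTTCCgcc
Eif2b5, chr16:20498812-20498841, plus strand: TCTCTCCCTgcaactacaccttcgcgtttt
Eif4g1, chr16:20672722-20672751, plus strand: gctccgCCCTCTgcgccggtcacgtggggc
Eif4a1, chr11:69672399-69672428, minus strand: gtcacgtcgagttgcagagcgccggcaggc
Eif2s1, chr12:78862067-78862096, plus strand: ggcgaagcgcacgctgaggagcttcggcgt
The Eef1a1 and Eef2 windows held runs of 10 and 8 bases and those of the initiation factors Eif2b5 and Eif4g1 runs of 9 and 6, while those of Eif4a1, Eif3a and Eif2s1 had no run longer than 2, 2 and 4. A run was no mark of the elongation factors alone. Of 48 member genes with a start in the table, 35.4% held such a run in at least 1 window, against 29.4% of all genes, and 26.1% of all 32851 windows did. The other strand was not searched. Starts are as annotated and were not measured in these cells. A run was counted anywhere in the window, also in the percentages above. The runs of Eef1a1 and Eif2b5 began before the annotated start, and those of Eef2 and Eif4g1 began after it. A run of these letters is thus a description and does not show that the message begins with it.

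In control cells the factors spanned more than 3 orders of magnitude in footprint density. Eef1a1 led with 10296 ± 1218 footprint RPKM (SD, n = 2), followed by Eif5a with 2836 ± 70.2, the helicase Eif4a1 with 2112 ± 22.8, the start-codon factor Eif1 with 1568 ± 26 and the exchange factor Eef1b2 with 1129 ± 26.3. Next came Eif2s2 with 1086 ± 15.7, whose libraries did not overlap with those of Eef1b2. Lower down, Eef2 (692 ± 43.7) and Eif2s1 (673 ± 28.1) were neighbours that did not differ beyond their spread. The tested eIF3 subunits formed a band between 155 (Eif3l) and 476 (Eif3b). The eIF2B subunits were lower, between 39.6 (Eif2b4) and 149 (Eif2b1), and the eIF2 subunits higher and less even, with Eif2s2 above Eif2s1 (673) and Eif2s3x (163). Among paralogues, Eif4a1 exceeded Eif4a2 (204), Eif4e exceeded Eif4e2 (588 against 64.3), and Eif4g1 (121) exceeded Eif4g3 (3.37). Together the members took 3.41% and 3.73% of the footprints in the control libraries, 3.88% and 3.86% at 6 h and 4.04% and 4.15% at 21 h. Eef1a1 alone took 1.31% and 1.55% in controls, 1.78% and 1.72% at 6 h and 1.68% and 1.72% at 21 h. Both treated groups lay above both controls in the members' share and in that of Eef1a1, which is part of it. The median footprint change of the members at 6 h was -0.04 on the log2 scale, so the share at 6 h does not show a rise of the factors as a group.

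**Figure D1:**
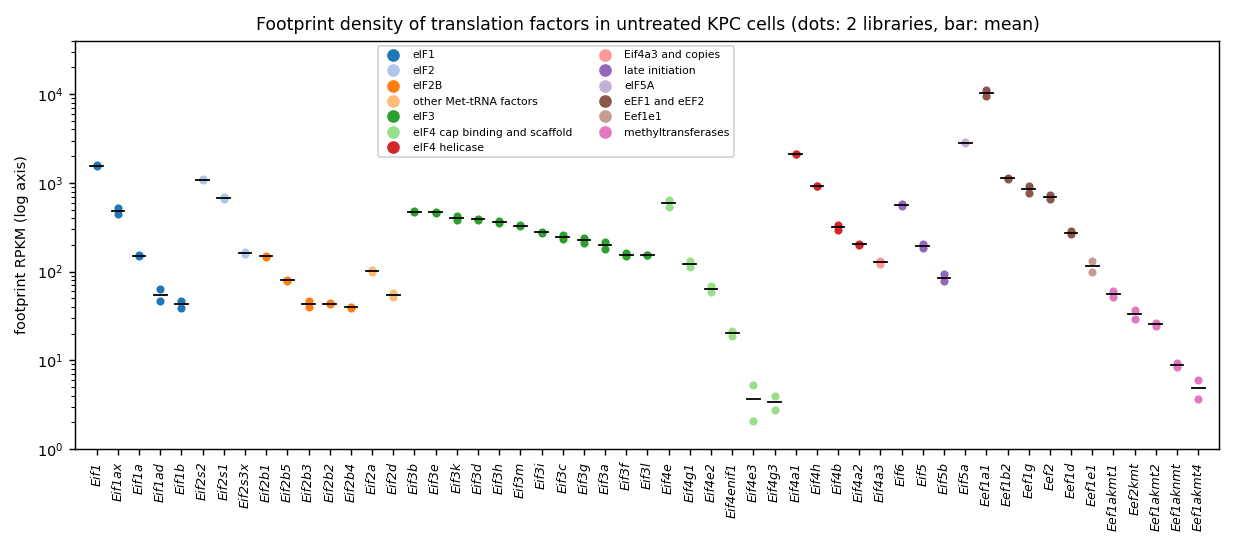
Footprint density (RPKM, log axis) of the 53 factors tested in footprints, in the 2 control libraries (dots) with their mean (bar), coloured by role. Eef1a1 stands above all other factors at 10296 RPKM, the eIF3 subunits lie between 155 and 476, and Eif4g3 and Eif4e3 are lowest at 3.37 and 3.67.

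Footprint RPKM relative to RNA RPKM varied widely between the factors. The ratio of footprint to RNA RPKM in control cells was highest for Eif1ax (34.3), Eif4e (22.5) and Eif2s1 (21.3). It was lowest for Eif4enif1 (1.19), Eif3h (1.70), Eef2 (1.79), Eef1akmt4 (2.00) and Eif2b5 (2.07). The RNA scale is lowered throughout by the 3 genes that took most RNA-seq reads, so the absolute size of these ratios has no meaning. Their ranks also depend on the annotated lengths, coding for footprints and transcript for RNA. These were 432 and 5172 bases for Eif1ax and 2574 and 3089 for Eef2. In mean control reads Eif1ax had 1040.5 footprints to 197.5 RNA reads, and Eif2s1 3131 to 289.5. The ratios are thus no ranking of translation between genes. The tested eIF3 subunits lay between 1.70 (Eif3h) and 6.40 (Eif3d).

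At 6 h of Cis few factors had moved. Of 53 factors tested in footprints 1 rose and 1 fell, which is 3.77% against 2.04% of all 10383 transcripts tested (1.05% higher and 0.992% lower; limma, adjusted p under 0.05). Eif6, which keeps the large ribosomal subunit apart from the small one, read 576 and 551 RPKM in the control libraries, 759 and 783 at 6 h and 996 and 999.9 at 21 h. It rose by 0.44 ± 0.07 (adjusted p = 0.0289) on the log2 scale at 6 h, and its control, 6 h and 21 h libraries did not overlap. Eif2s1, the alpha subunit of eIF2, read 653 and 693 RPKM in the control libraries, 489 and 491 at 6 h and 860.0 and 852 at 21 h. Its change at 6 h was -0.47 ± 0.08 (adjusted p = 0.0289), with both 6 h libraries below both controls. Both calls were lost without the filter on low values, in a fit without the variance trend, with the replicate number as a block and when any control or 6 h library was left out, with the change then between -0.54 and -0.41 for Eif2s1 and between 0.41 and 0.46 for Eif6. Below the threshold, the footprint change was 0.49 (adjusted p = 0.0538) for Eif2b4 and 0.28 (adjusted p = 0.152) for Eef1a1. In RNA and in translation efficiency (TE, log2 footprints minus log2 RNA) limma called 0 of 53 and 0 of 52 members at 6 h, as it called 0% of all 9443 and 9295 transcripts. At an unadjusted p under 0.05 there were 10 members in RNA, beside 1086 of all 9443 transcripts, and 11 in TE, beside 710 of 9295. Voom on recovered reads called 1 member higher and 2 lower in RNA, beside 0.604% and 1.82% of all transcripts, and 0 members in TE, beside 0.043% and 0.108%.

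At 21 h the factors did not move as a block. In footprints 14 rose and 5 fell of 53 tested, which is 35.8% against 39.1% of all transcripts (18.9% higher and 20.2% lower). In RNA 10 rose and 8 fell of 53, or 34% against 23.8% of all transcripts (11.6% higher and 12.2% lower). The share called was near the background in footprints, and the split leaned to higher there. The background itself shifts with level. With a minimum mean of 5 RPKM, 967 rose and 763 fell of 5679 transcripts in RNA. In footprints 1876 rose and 1729 fell of 8254 under that minimum. The median change of the members was 0.17 in footprints and 0.08 in RNA, beside 0.01 and 0.02 over all transcripts tested. Called in both assays were 8 factors. The share of all transcripts called in both was not computed, so this count has no background and is no result about the factors. Eif1, Eif2b1, Eif2b4, Eif2s1 and Eif3d rose in both, Eif4e and Eif4g3 fell in both, and Eef2 rose in footprints and fell in RNA. These counts rest on the modelling of the spread: without the variance trend they were 8 and 3 in footprints and 3 and 2 in RNA. Without scaling between libraries the RNA counts were 13 and 5. In RNA they were 4 higher without either control library and 6 without 21 h replicate 2, with 3 lower without control replicate 1 and 4 without control replicate 2 or either 21 h library. In footprints 3 were lower without control replicate 2 or 21 h replicate 2.

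**Figure D2:**
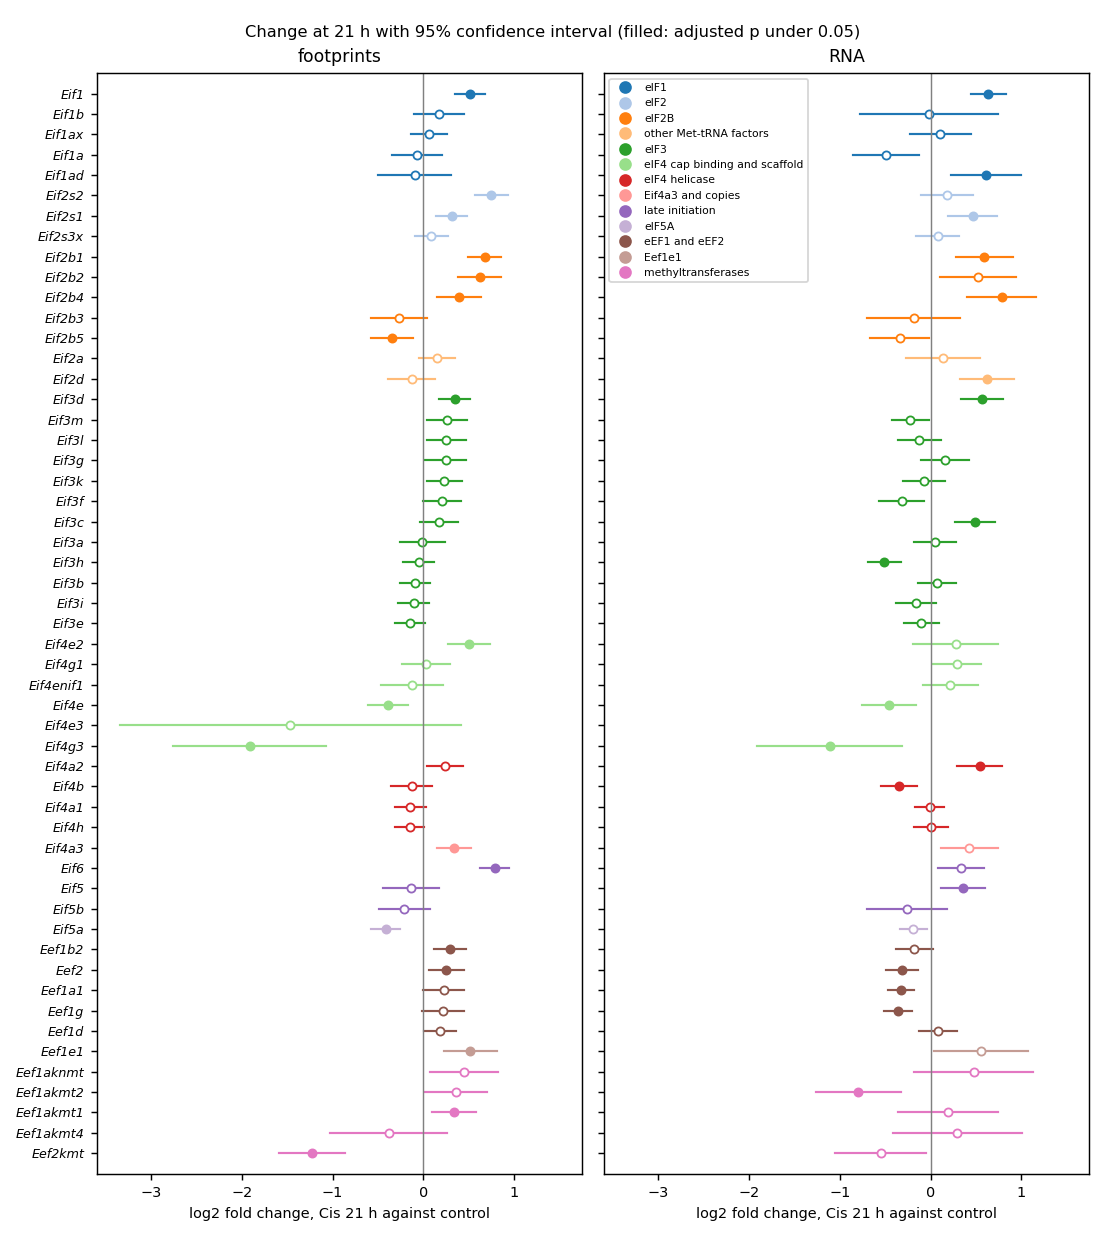
Log2 fold change from control to 21 h of Cis with its 95% confidence interval for the 53 factors tested in footprints (left) and for those of them tested in RNA (right), ordered by role. Filled points passed the adjusted p of 0.05. In footprints Eif6 (0.79) and Eif2s2 (0.75) are farthest to the right and Eif4g3 (-1.92) and Eef2kmt (-1.23) farthest to the left among the filled points.

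The eIF2 subunits, which carry the initiator tRNA, were 2 of 3 higher in footprints at 21 h and 1 of 3 in RNA. Over all transcripts tested 18.9% were higher in footprints and 11.6% in RNA. Eif2s2, the beta subunit, read 1097 and 1075 RPKM in the control libraries, 1298 and 1215 at 6 h and 1775 and 1976 at 21 h. It rose by 0.75 ± 0.08 (adjusted p = 0.000263) in footprints, with the 21 h libraries above all others, while its RNA change was 0.18 ± 0.13 (adjusted p = 0.335). Eif2s1, lower at 6 h, ended above control at 21 h with a footprint change of 0.31 ± 0.08 (adjusted p = 0.0114), a call lost without the variance trend and without control replicate 1 (0.25). Between 6 and 21 h it rose by 0.78 ± 0.08 (adjusted p = 0.000299). Its RNA read 30.5 and 32.7 RPKM in the control libraries, 27.1 and 31.8 at 6 h and 46.4 and 46.5 at 21 h, and rose by 0.47 ± 0.12 (adjusted p = 0.0208) at 21 h with both libraries above all others. The RNA call was lost when any control or 21 h library was left out, with quantile normalization and without the trend (adjusted p up to 0.122). Eif2s3x, the gamma subunit that binds GTP and tRNA, had a footprint change of 0.09 ± 0.08 (95% interval -0.09 to 0.27, adjusted p = 0.415) and an RNA change of 0.08. The beta subunit had the largest and the gamma subunit the smallest footprint change of the complex.

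In eIF2B, the exchange factor for eIF2, the subunits split. The regulatory subunits alpha, beta and delta rose in footprints at 21 h, and the catalytic epsilon subunit fell. Thus 4 of 5 were called, beside 39.1% of all transcripts, and a count in so small a group cannot be set apart from that share. Eif2b1 (alpha) read 152 and 146 RPKM in the control libraries, 129 and 127 at 6 h and 240.4 and 248 at 21 h, a change of 0.68 ± 0.08 (adjusted p = 0.000387) with the 21 h libraries clear of the rest. Eif2b2 (beta) read 42.7 and 43.8 RPKM in the control libraries, 49.6 and 46.4 at 6 h and 71.4 and 65.5 at 21 h and rose by 0.62 ± 0.11 (adjusted p = 0.0022), again without overlap. Eif2b4 (delta) read 39.8 and 39.4 RPKM in the control libraries, 57.1 and 55.8 at 6 h and 51 and 56.1 at 21 h. It rose by 0.39 ± 0.10 (adjusted p = 0.0176) at 21 h, a call lost when either control or 21 h replicate 2 was left out, and its 6 and 21 h libraries overlapped. Eif2b5 (epsilon) read 79.1 and 81.5 RPKM in the control libraries, 82.7 and 83.9 at 6 h and 68.7 and 60.6 at 21 h and fell with a change of -0.35 ± 0.10 (adjusted p = 0.0241), the 21 h libraries below all others. That call was lost without the variance trend and without either control or 21 h replicate 2. Eif2b3 (gamma), the partner of epsilon in catalysis, had -0.27 ± 0.14 (adjusted p = 0.153). In RNA Eif2b1 and Eif2b4 rose, by 0.59 and 0.78, and Eif2b2, Eif2b3 and Eif2b5 had 0.52, -0.19 and -0.34, so the sign of each subunit was the same in both assays. The RNA calls of Eif2b1 and Eif2b4 were lost without control replicate 1 and without 21 h replicate 2, and that of Eif2b1 also without control replicate 2 and without the trend. TE changes at 21 h lay between -0.39 (Eif2b4) and 0.10 (Eif2b2), none of them called.

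**Figure D3:**
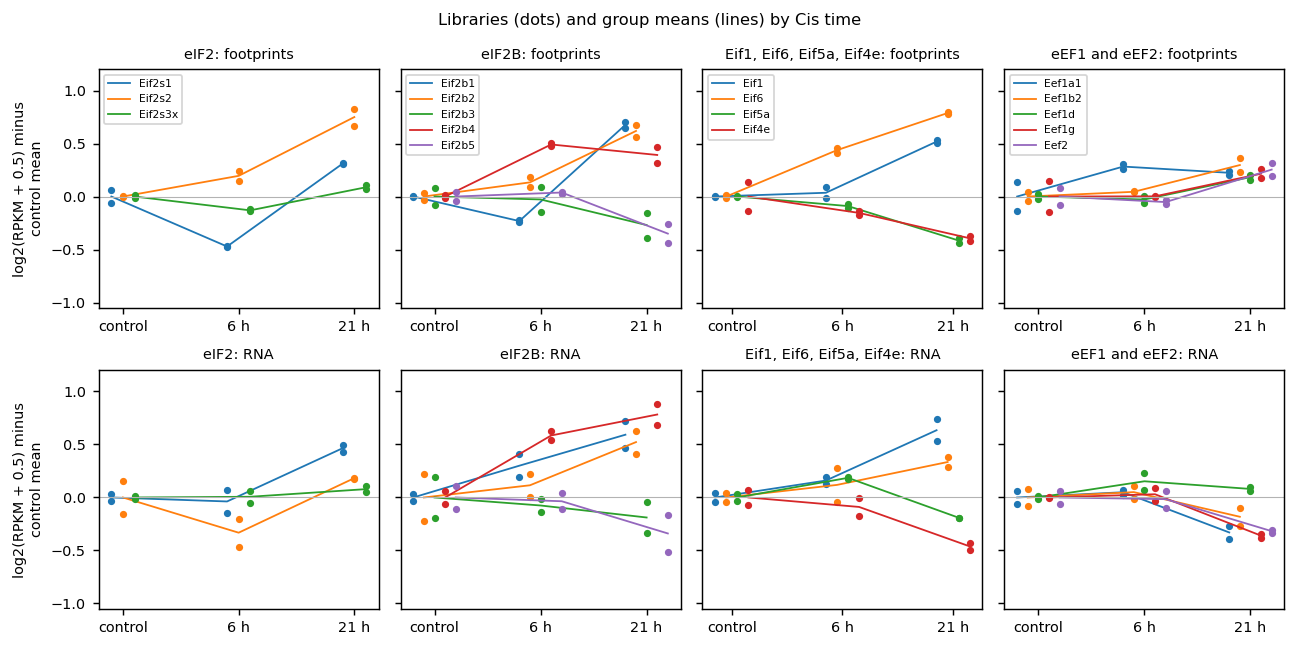
Log2(RPKM + 0.5) minus the control mean, per library (dots) with group means (lines), for footprints (top) and RNA (bottom) in control cells and after 6 and 21 h of Cis. RPKM were first divided by the median-of-ratios factor of each library. Footprints of Eif2b1 and Eif2b2 end near 0.68 and 0.62 while those of Eif2b5 end near -0.35, and the eEF1 and eEF2 genes other than Eef1d end above control in footprints and below it in RNA.

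Among the factors of start-codon selection, Eif1 rose in both assays. Eif1 read 1586 and 1549 RPKM in the control libraries, 1564 and 1684 at 6 h and 2335 and 2270.2 at 21 h, a footprint change of 0.52 ± 0.07 (adjusted p = 0.000876) at 21 h. In RNA it read 202 and 219 RPKM in the control libraries, 219 and 230.0 at 6 h and 364 and 330.4 at 21 h and rose by 0.63 ± 0.09 (adjusted p = 0.00113). The 21 h libraries were highest in both assays, and the 6 h change was 0.04 in footprints and 0.16 in RNA. Its paralogue Eif1b, far lower in level, had 0.18 in footprints, and the eIF1A genes Eif1a and Eif1ax had -0.07 and 0.06. Eif1ad, which shares the eIF1A domain, rose in RNA by 0.61 ± 0.17 (adjusted p = 0.0299) and had -0.10 in footprints. Its RNA call was lost under 6 of 15 alternatives, among them leaving out either control library or 21 h replicate 1, quantile normalization and no filter. Of the late factors, Eif6 continued upward to 0.79 ± 0.07 (adjusted p = 0.000108) in footprints at 21 h, the largest rise of any member, with an RNA change of 0.33 ± 0.11 (adjusted p = 0.0605). Eif5, the GTPase activator of eIF2, rose in RNA by 0.36 but had -0.13 in footprints. Eif5b had -0.21 and -0.26 in the 2 assays, neither called. Of the factors that bring initiator tRNA independently of eIF2, Eif2d rose in RNA by 0.62 ± 0.13 (adjusted p = 0.00932) (lost without control replicate 2) with -0.13 in footprints, and Eif2a had 0.15 and 0.14.

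The eIF3 complex, the scaffold of the initiation complex on the small subunit, moved in few subunits in footprints. At 21 h 1 of 12 tested subunits rose and 0 fell, beside 18.9% and 20.2% of all transcripts, and the median was 0.19. Eif3d, a subunit that can itself bind the cap, read 380.1 and 395 RPKM in the control libraries, 425 and 433 at 6 h and 514 and 497 at 21 h and rose by 0.35 ± 0.08 (adjusted p = 0.007). Its RNA rose too, by 0.57 ± 0.10 (adjusted p = 0.00422). The lowest subunit in footprints was Eif3e with -0.15 ± 0.07 (adjusted p = 0.144), and the core subunit Eif3a had -0.01 ± 0.11 (95% interval -0.26 to 0.23). In RNA 2 of 13 rose, Eif3d and Eif3c (0.49, lost without control replicate 1), and 1 fell, beside 11.6% and 12.2% of all transcripts. The calls of all 3, and that of Eif3d in footprints, were lost without the variance trend. The subunit that fell was Eif3h, which read 218 and 209 RPKM in the control libraries, 217 and 197 at 6 h and 155 and 162 at 21 h and changed by -0.51 ± 0.08 (adjusted p = 0.00234), with the 21 h libraries below all others. Its footprints read 372 and 354 RPKM in the control libraries, 331 and 347 at 6 h and 361 and 358 at 21 h, so control and 21 h overlapped, both 6 h libraries were lower, and the change at 21 h was -0.05. The RNA median of the complex was -0.07, and 0.01 on values without scaling between libraries.

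In the cap-binding complex eIF4, the cap-binding protein fell and its repressive relative rose in footprints at 21 h. Eif4e, which binds the cap, read 541 and 635 RPKM in the control libraries, 540.2 and 524 at 6 h and 465 and 449 at 21 h. It fell with a footprint change of -0.39 ± 0.10 (adjusted p = 0.0123) and an RNA change of -0.46 ± 0.13 (adjusted p = 0.0318), and the 21 h libraries were lowest in footprints. The footprint call was lost without the variance trend, without control replicate 2 and without 21 h replicate 2. The RNA call was lost without any 1 control or 21 h library, without scaling and without the trend (adjusted p up to 0.172). Eif4e2, known as a cap-binding repressor, read 69.5 and 59.1 RPKM in the control libraries, 76.3 and 77.4 at 6 h and 92.5 and 94 at 21 h and rose by 0.50 ± 0.10 (adjusted p = 0.00508), with 0.28 in RNA. The scaffold Eif4g1 had 0.03 ± 0.12 in footprints (95% interval -0.24 to 0.29), and its paralogue Eif4g3 fell by 1.92 ± 0.37 (adjusted p = 0.00405). Eif4g3 is sparse, with 68 and 88 footprints in the controls, 38 and 27 at 6 h and 5 and 14 at 21 h, and its RNA had 38 and 32, 15 and 27 and 8 and 10 reads, a change of -1.11 (adjusted p = 0.047) whose call was lost under 8 of 13 alternatives, among them a pseudocount of 0.1, no filter, no scaling and leaving out control replicate 2 or either 21 h library. The groups did not overlap in footprints, and the change ran from -2.71 with voom to -1.51 with a pseudocount of 1. The helicase Eif4a1 had -0.15 ± 0.08 (adjusted p = 0.16) and -0.01 in RNA, where quantile normalization gave 0.24. Eif4a2 rose in RNA by 0.54 ± 0.11 (adjusted p = 0.00733) and had 0.24 in footprints (adjusted p = 0.0581), and its RNA call was lost without control replicate 2 and without the trend. Of the helicase cofactors, Eif4b fell in RNA with -0.35 ± 0.09 (adjusted p = 0.0182) (lost under 5 of 15 alternatives, among them either control library or 21 h replicate 1 left out) and had -0.13 in footprints, and Eif4h had -0.15 and 0.00. Eif4a3, the relative that marks exon junctions, rose in footprints by 0.33.

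In the eEF1 and eEF2 genes, footprint changes at 21 h lay above 0 and most RNA changes below it. In footprints all 5 tested eEF1 and eEF2 genes had a change above 0 at 21 h (median 0.22), beside 5249 of all 10383 transcripts. Of these 5 genes 2 rose, beside 18.9% of all transcripts. In RNA 3 of the 5 fell, beside 12.2% of all transcripts, and the median was -0.32. Eef2 footprints read 661 and 723 RPKM in the control libraries, 682 and 665 at 6 h and 814 and 879 at 21 h, a change of 0.25 ± 0.09 (adjusted p = 0.0431), and both 21 h libraries were above the rest. That call was lost under 8 of 15 alternatives. Eef2 RNA read 398 and 375 RPKM in the control libraries, 384 and 345 at 6 h and 324 and 333 at 21 h and changed by -0.32 ± 0.08 (adjusted p = 0.0168), with both 21 h libraries below the rest. Eef1a1 RNA read 2605 and 2441 RPKM in the control libraries, 2527 and 2451 at 6 h and 2166 and 2088 at 21 h and changed by -0.33 ± 0.06 (adjusted p = 0.00563), again without overlap, while its footprints read 9435 and 11158 RPKM in the control libraries, 12809.9 and 12411 at 6 h and 12145 and 12435 at 21 h, a change of 0.22 ± 0.10 (adjusted p = 0.102). Eef1g, the gamma subunit of the exchange complex, fell in RNA with -0.36 ± 0.07 (adjusted p = 0.00616) and had 0.22 in footprints. Eef1b2 rose in footprints by 0.30 ± 0.08 (adjusted p = 0.0154) and had -0.18 in RNA. Eef1d had 0.18 and 0.08, neither called. With quantile normalization the RNA changes were -0.07 for Eef2 and -0.15 for Eef1g, neither called. That method gives a gene of equal rank in the libraries equal values, as it did Eef1a1, so it says nothing of the Eef1a1 change. The 3 RNA calls were also lost without the variance trend, those of Eef1a1 and Eef2 without control replicate 1 and that of Eef2 without 21 h replicate 2. The footprint call of Eef1b2 was lost without the trend, without control replicate 1 and without 21 h replicate 2.

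Eif5a, which helps ribosomes through stalled sequences, went the other way. Its footprints read 2886 and 2787 RPKM in the control libraries, 2649 and 2735 at 6 h and 2220.1 and 2142 at 21 h and changed by -0.42 ± 0.07 (adjusted p = 0.00198). Both 21 h libraries were below all others, and the call held under every alternative run, with values between -0.43 and -0.38. The RNA change was -0.19 ± 0.07 (adjusted p = 0.0675). Among the enzymes that methylate elongation factors, Eef2kmt, which acts on eEF2, read 36.9 and 29.5 RPKM in the control libraries, 31 and 29.5 at 6 h and 15.9 and 12.5 at 21 h. It fell by 1.23 ± 0.16 (adjusted p = 0.00061), with the 21 h libraries below all others, and the RNA change was -0.55 ± 0.22 (adjusted p = 0.106). Eef1akmt1 rose in footprints by 0.33, the highest of these enzymes, Eef1aknmt, had 0.45 ± 0.16 (adjusted p = 0.0582), and Eef1akmt2 fell in RNA with -0.80 ± 0.21 (adjusted p = 0.0218), a call lost with voom and without control replicate 2 or either 21 h library. Eef1e1, a scaffold of the tRNA synthetase complex despite its symbol, read 133 and 100.3 RPKM in the control libraries, 107 and 102 at 6 h and 162 and 179 at 21 h and rose by 0.52 ± 0.13 (adjusted p = 0.0124) in footprints, a call lost without the trend, without control replicate 2 and without 21 h replicate 2.

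TE changes at 21 h were above 0 for each of the 5 tested eEF1 and eEF2 genes, beside 4204 of all 9295 transcripts. They were of mixed sign in each initiation complex, with no member past the adjusted threshold. Limma called 0 of 52 members against 0.409% of all 9295 transcripts (0.258% higher and 0.151% lower), with 18 members at an unadjusted p under 0.05, beside 1183 of all transcripts. Voom on recovered reads called 6 members higher and 1 lower, beside 0.785% and 0.839% of all transcripts. The eEF1 and eEF2 genes had a median TE change of 0.55, beside -0.04 over all transcripts. The values were 0.58 for Eef1g, 0.57 for Eef2, 0.55 for Eef1a1, 0.48 for Eef1b2 and 0.10 for Eef1d, with adjusted p from 0.0672 (Eef2) to 0.771 (Eef1d). The median was 0.51 without scaling and 0.34 with quantile normalization. The latter made Eef1a1 RNA equal by its rank, so it is a limited check of this median. Medians of the other complexes were 0.01 for eIF2 (-0.04 without scaling), -0.01 for eIF2B, 0.07 for eIF3, -0.26 for the cap-binding and scaffold genes and -0.15 for the eIF4 helicase genes. Within eIF3 the values ran from -0.32 (Eif3c) to 0.53, and Eif3m and Eif3h were at 0.48 and 0.46. Eef1akmt2 had the highest value of all members (1.16 ± 0.26, adjusted p = 0.096) and Eif4g3 the lowest (-0.80 ± 0.47, adjusted p = 0.523).

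**Figure D4:**
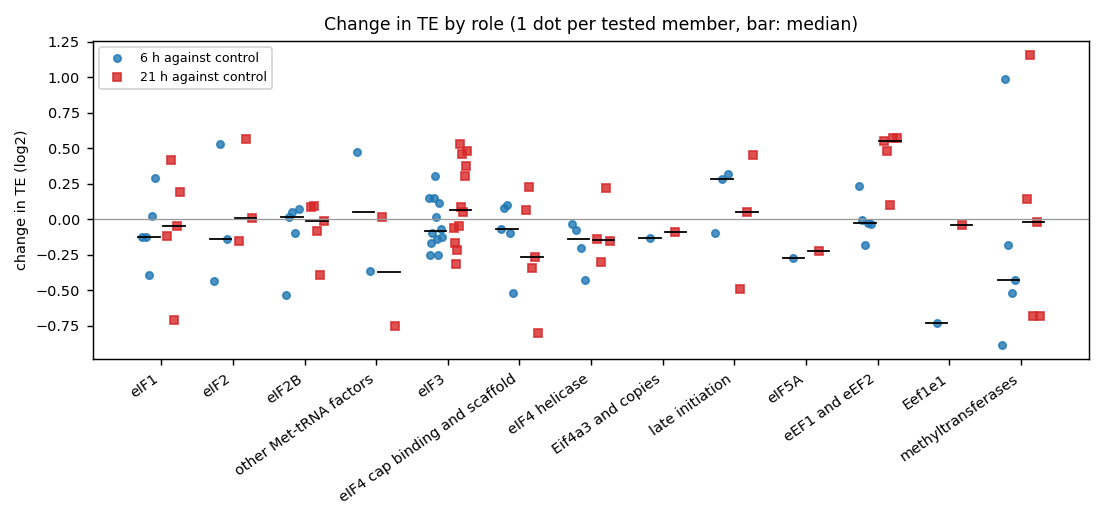
Change in TE on the log2 scale at 6 h (circles) and 21 h (squares) against control, by role, with 1 symbol for each of the 52 tested members and the median as a bar. At 21 h the eEF1 and eEF2 genes have a median of 0.55 while those of eIF2, eIF2B and eIF3 lie between -0.01 and 0.07.

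More members were called between 6 and 21 h than between control and 6 h. Between 6 and 21 h 12 members rose and 3 fell in footprints, or 28.3% against 30.7% of all transcripts (15% higher and 15.7% lower). In RNA 7 rose and 9 fell, or 30.2% against 15.7% (7.53% higher and 8.21% lower). With a minimum mean of 5 RPKM, 651 rose and 607 fell of all 5679 transcripts in RNA. Without scaling the RNA counts were 11 and 3, and without the variance trend the counts were 7 and 2 in footprints and 0 and 1 in RNA. Leaving out either 6 h library gave 7 higher and 1 lower in footprints, and in RNA 3 or 4 higher and 5 lower, while leaving out either 21 h library gave 1 higher and 4 or 5 lower in RNA. The largest footprint rises in that interval were those of Eif2b1 (0.91 ± 0.08, adjusted p = 0.000196), Eif2s1 and Eef1e1 (0.68), and the falls were those of Eef2kmt (-1.09), Eif2b5 (-0.39) and Eif5a (-0.33). In TE 3 members rose of 52, or 5.77% against 1.01% of all transcripts (0.592% higher and 0.42% lower), namely Eef2 with 0.61 ± 0.12 (adjusted p = 0.0347), Eef1g with 0.60 ± 0.13 (adjusted p = 0.0488) and Eif3h with 0.60 ± 0.11 (adjusted p = 0.0291). Each of these was lost under 10 to 16 of 21 alternatives. The comparisons at 6 h and at 21 h share their control libraries.

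Of the 64 members 10 fell below the filter of a mean of 1 RPKM in both assays. These were the Eif2s3x paralogue Eif2s3y, the tissue-restricted Eef1a2 and Eif5a2, the Eif4a3 copies Eif4a3l1 and Eif4a3l2, the copies Eif1ad13, Eif1ad15, Eif1ad16 and Eif1ad19, and Eef1akmt3. Eef1a2 had 13 footprints in all 6 libraries together, so nearly all eEF1A reads were those of Eef1a1. Eif5a2 had 8 footprints and 27 RNA reads. Eif3j1 had 145 RNA reads and 0 footprints in the 6 libraries, a count that allows up to 3, and Eif4e3 passed the filter in footprints only. Eif1 and Eif1b, Eif4a1 and Eif4a2, Eif4a3 and its copies and the Eif1ad and Eif3j genes have close relatives, Eef1a1 many processed copies, and how reads shared with them were counted is not given, so their levels are uncertain to that extent.

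Related genes outside the symbol rule gave context for the complexes. Of 12 kinases and brakes 1 rose and 2 fell in footprints at 21 h. Ppp1r15a, the phosphatase subunit that removes phosphate from eIF2 alpha, rose by 2.93 ± 0.19 in footprints and 2.32 ± 0.17 in RNA, Eef2k, the kinase that inhibits eEF2, changed by -1.16 ± 0.18 and -1.33 ± 0.29, and Eif2ak2 (PKR) by -0.30 ± 0.09 in footprints. The other eIF2 kinases and the Eif4ebp genes were not called in footprints at 21 h. Of 9 genes that make the special residues of eIF5A and eEF2, 1 rose, Dph2 (1.24), and 3 fell, Dph6 (-1.79), Dph5 (-0.59) and Dnajc24 (-0.48). All 4 belong to the diphthamide pathway that modifies eEF2, as do all genes of this list except Dhps and Dohh. Of 9 mitochondrial translation factors 1 rose (Mtif3, 0.66) and 3 fell (Mrrf, -0.78, Mtif2, -0.75, and Tsfm, -0.41). Of 10 initiation helpers 0 rose and 2 fell (Bzw2, -0.48, and Mcts1, -0.51), and the termination and recycling factors lay between -0.28 (Gspt1) and 0.20 (Etf1) with none past the threshold. In RNA Etf1, the release factor, rose by 0.38. The share called was 4 of 9 at most in these lists, against 39.1% of all transcripts.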

How the data were processed

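Ribosome profiling and RNA-seq libraries were made from the same lysates in cycloheximide, footprints as RNase I fragments of 25 to 35 nt, with 2 libraries per assay for control, 6 h and 21 h. The authors deposited RPKM for each library and 1 transcript per gene, footprints over the coding sequence and RNA over the transcript, without pooling. The submitters' processing notes name cutadapt, STAR and GRCm39, and versions, the counter and the handling of shared reads are not given in the sources used here. A transcript absent from a library's file had no read there and was given 0. Multiplied by length, 100% of the values were whole multiples of 1 read within 0.01, which gave reads and depth. Read numbers and the limit of 3 for a count of 0 cover counting error only.

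For each assay, RPKM were divided by median-of-ratios factors and a transcript was tested if its scaled mean reached 1. The log2 of RPKM + 0.5 entered limma 3.58.1 (R 4.3.3, eBayes with a trend), 3 groups in 1 model per assay. Changes are on that scale and understate those of low genes. They are given ± SE, and levels as means ± SD of deposited RPKM (n = 2). TE was the interaction of assay and treatment over 12 libraries, taken as unpaired. With the replicate number as a block, TE was instead footprints minus RNA of same-numbered libraries. That is the paired form if these libraries share a lysate. P-values are two-sided and adjusted over all transcripts tested (Benjamini-Hochberg), with a threshold of 0.05. An exact permutation test of 2 against 2 cannot go below p = 0.333. Roles were assigned by symbol. Full statistics were given for members past the threshold (at most the 8 largest rises and falls per comparison), for the highest and lowest member of a role by footprint change at 21 h, and for a fixed member of each role. The members, lists and roles were chosen with earlier results of these data known. The settings varied were the pseudocount (0.1 and 1), the filter (none, or a minimum of 5) and the scaling (none, or quantile normalization), besides fits with no trend, voom on recovered reads, the replicate number as a block and leaving out each library. Protein sequences and a genome of the same build were not used here. A further allele of the line is not reported here. Tables and figures used matplotlib 3.10.9, numpy 2.4.6 and pandas 2.3.3 in Python 3.11.15.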

Additional observations from a re-analysis of the deposited data

Results flagged for a closer look

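The change at 21 h differed from that at 6 h for some members, by limma's test of the difference between the 2 times (adjusted p under 0.05, 2 libraries each). Values are the 21 h change minus the 6 h change on the log2 scale, and the cause of the differences was not tested.

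In footprints the 21 h change was higher for Eif2b1 (0.91), Eif2s1 (0.78), Eef1e1 (0.68), Eif2s2 (0.55), Eif2b2 (0.49), Eif1 (0.48), Eif4a3 (0.45), Eif3m (0.42), Eif3l (0.36), Eif6 (0.35), Eef2 (0.31) and Eef1b2 (0.25). It was lower for Eef2kmt (-1.09), Eif2b5 (-0.39) and Eif5a (-0.33). Eif2s1, the 1 member called lower at 6 h, was called higher at 21 h against control, and both calls were lost under some alternatives.

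In RNA the 21 h change was higher for Eif2s2 (0.51), Eif2s1 (0.50), Eif1 (0.47), Eif5 (0.47), Eif3a (0.44), Eif4a2 (0.38) and Eif3c (0.38). It was lower for Eef2kmt (-0.84), Eif1a (-0.55), Eif3h (-0.53), Eif3i (-0.43), Eef1g (-0.39), Eef1a1 (-0.38), Eif5a (-0.38), Eif4b (-0.31) and Eef2 (-0.30). Without scaling, 11 members rose and 3 fell in this RNA comparison in place of 7 and 9, with the median over all transcripts at 0.15.

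In TE the 21 h change was higher for Eef2 (0.61), Eef1g (0.60) and Eif3h (0.60).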

How the results depend on the processing

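Of 65 values of named genes past the threshold, 0 changed direction under an alternative and 17 passed under each. Some called changes lay outside these 65, such as the rises at 21 h of Eif4a3 and Eef1akmt1 in footprints and of Eif5 in RNA. They entered the counts below but were not followed singly. In footprints at 6 h the count of members higher (1) became 2 with a pseudocount of 1, a minimum of 5 or quantile normalization, 4 with voom and 0 without the filter or with the replicate block, and the count lower (1) became 3 with voom and 0 without the filter or with the block. At 21 h voom called 22 members higher in footprints in place of 14, and 6 lower against 6 h in place of 3. In RNA voom called 1 higher and 2 lower at 6 h, unscaled RPKM gave 5 lower at 21 h in place of 8, and against 6 h the counts were 11 and 3 unscaled and 4 and 5 without the filter, in place of 7 and 9. Without scaling the median over all transcripts was 0.10 in place of 0.02 for RNA at 21 h and 0.15 in place of 0.01 against 6 h. In TE at 21 h voom called 6 higher and 1 lower and a minimum of 5 gave 2 higher, in place of 0. Against 6 h TE gave 3 higher, 7 with voom, 1 without the filter or with quantile normalization, and 0 unscaled, without the trend or with the block. Without the trend the counts were lower, with 0 and 0 in footprints at 6 h, 8 and 3 at 21 h and 7 higher against 6 h, and in RNA 3 and 2 at 21 h and 0 and 1 against 6 h. A minimum of 5 left Eif4g3 untested.

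Leaving out each library gave, at 6 h, 0 to 2 footprint members higher and 0 to 1 lower. At 21 h it gave 10 to 16 higher and 3 to 6 lower in footprints (3 lower without control replicate 2 or 21 h replicate 2), 4 to 12 higher and 3 to 9 lower in RNA and 0 to 2 higher in TE. The lowest RNA counts came without a control library (4 higher without either, 3 lower without replicate 1). Against 6 h it gave 7 to 14 higher and 1 to 4 lower in footprints (7 and 1 without either 6 h library), 1 to 6 and 4 to 8 in RNA (1 higher without either 21 h library), and 0 to 3 higher in TE.

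Some values below the threshold changed sign at 21 h. With quantile normalization Eif3a RNA was -0.054, Eif4a1 RNA 0.24 (then called by limma, adjusted p = 0.0265), Eif2s3x footprints -0.0042 and Eif4g1 footprints -0.051. Unscaled, Eif4a1 RNA was 0.076 and Eif3a footprints 0.024. With 1 library left out, Eif4a1 RNA ran from -0.051 to 0.039, and in footprints Eif1ad from -0.35 to 0.15, Eif3a from -0.17 to 0.14 and Eif4g1 from -0.11 to 0.16. The cause of these shifts was not tested.

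The replicate numbers showed no shared deviation, as deviations of same-numbered libraries correlated at -0.0143 to 0.0215 between groups or assays. Such values cannot show that the libraries were unpaired, and the labels do not say whether same-numbered libraries belong together. With the number as a block, footprints at 21 h stayed at 14 higher and 5 lower, RNA gave 10 and 7, and against 6 h footprints gave 11 and 4 and RNA 7 and 9. With 2 libraries per group and 862476 to 1341584 usable RNA reads each, changes of sparse members such as Eif4g3 are limited by depth, and RNA and TE by more than footprints.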
